A study of Mus musculus with 16 samples.

Results

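The genes described here are 10 heat shock chaperone genes of mouse embryonic stem (ES) cells, taken by name: the mitochondrial Hspd1, Hspe1 and Hspa9, and the cytosolic Hspa8, Hspa4, Hsp90aa1, Hsp90ab1, Hsph1, Hspb1 and Dnaja1. They are 10 of the 23420 genes in the count files, and all 10 were among the 14664 genes with enough reads to be tested. RNA-seq had been done on 8 libraries of J1 ES cells, a line of 129S4/SvJae background, at passage 36 and on day 3 of culture in 2i/LIF medium on gelatin without feeder cells. Every library, the controls included, came from cells with a transgene for dCas9-VPR, a dead Cas9 fused to activation domains, and a guide RNA with a DsRed marker against RLTR10B2, a family of endogenous retroviral long terminal repeats. The groups were Dox + A-MYB cells (1 µg/ml doxycycline, and expression of A-MYB, a germline transcription factor), Dox cells (doxycycline only), A-MYB cells (A-MYB only) and control cells (neither), with 2 libraries each; induction was on days 1 and 2. The promoter that drove A-MYB, and whether the line was a single clone, are not given in the sources used. No group received doxycycline without the activator and its guide, so effects of the drug and of the activator cannot be told apart. Peak lists of the histone mark H3K27ac were also used, from pachytene spermatocytes of A-mybrepro9/repro9 mutant and wild-type mice of C57BL/6J background aged 8 to 12 weeks, with 2 lists per genotype.

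Heat shock chaperones bind unfolded protein and keep it from aggregating or help it fold. In the mitochondrial matrix, proteins imported by the Hsp70 motor Hspa9 are folded inside the chaperonin chamber of Hspd1 (Hsp60), which Hspe1 (Hsp10) closes as a lid. In the cytosol, J-domain proteins such as Dnaja1 hand clients to the Hsp70 Hspa8, the Hsp110 proteins Hspa4 and Hsph1 exchange its nucleotide, and the Hsp90 proteins finish many of its clients, while the small heat shock protein Hspb1 holds unfolded protein without using ATP. Several of these genes are transcribed through heat shock factor 1 (Hsf1), which binds heat shock elements, arrays of the unit GAA and its reverse complement TTC. Pluripotent stem cells are known for high levels of several chaperones.

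All 10 chaperone transcripts were lowest in the Dox + A-MYB cells, with both libraries below the other 6, as were 27.1% of all genes tested. Against A-MYB cells, Hspd1 fell by 61.3%, the largest fall of the 10, and Hspa9 fell by 23.4%, the smallest. In the main edgeR fit, either treatment alone lowered Hspd1, Hspe1, Hsp90ab1 and Hspb1 by smaller amounts, and Dox alone also lowered Hspa9. The other 5 cytosolic transcripts did not fall past the test there with either treatment alone. In some alternative fits, Hspa8 fell with either treatment and Hsp90aa1 with Dox. Levels are given as CPM, counts per 1000000 gene reads, on library sizes scaled by edgeR's trimmed mean of M values (TMM). Reads per gene are not divided by length, so levels are compared between groups and not between genes. Hspa8, Hspd1, Hspe1 and Hsp90ab1 have near-identical processed copies elsewhere in mammalian genomes, and 6.62 to 7.25% of reads per library were set aside by the authors' counting as not uniquely aligned. The share lost from these 4 genes is not known from the files and may be larger, so their counts are uncertain. In bulk RNA, fewer cells with a transcript and less transcript per cell cannot be told apart.

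**Figure D1:**
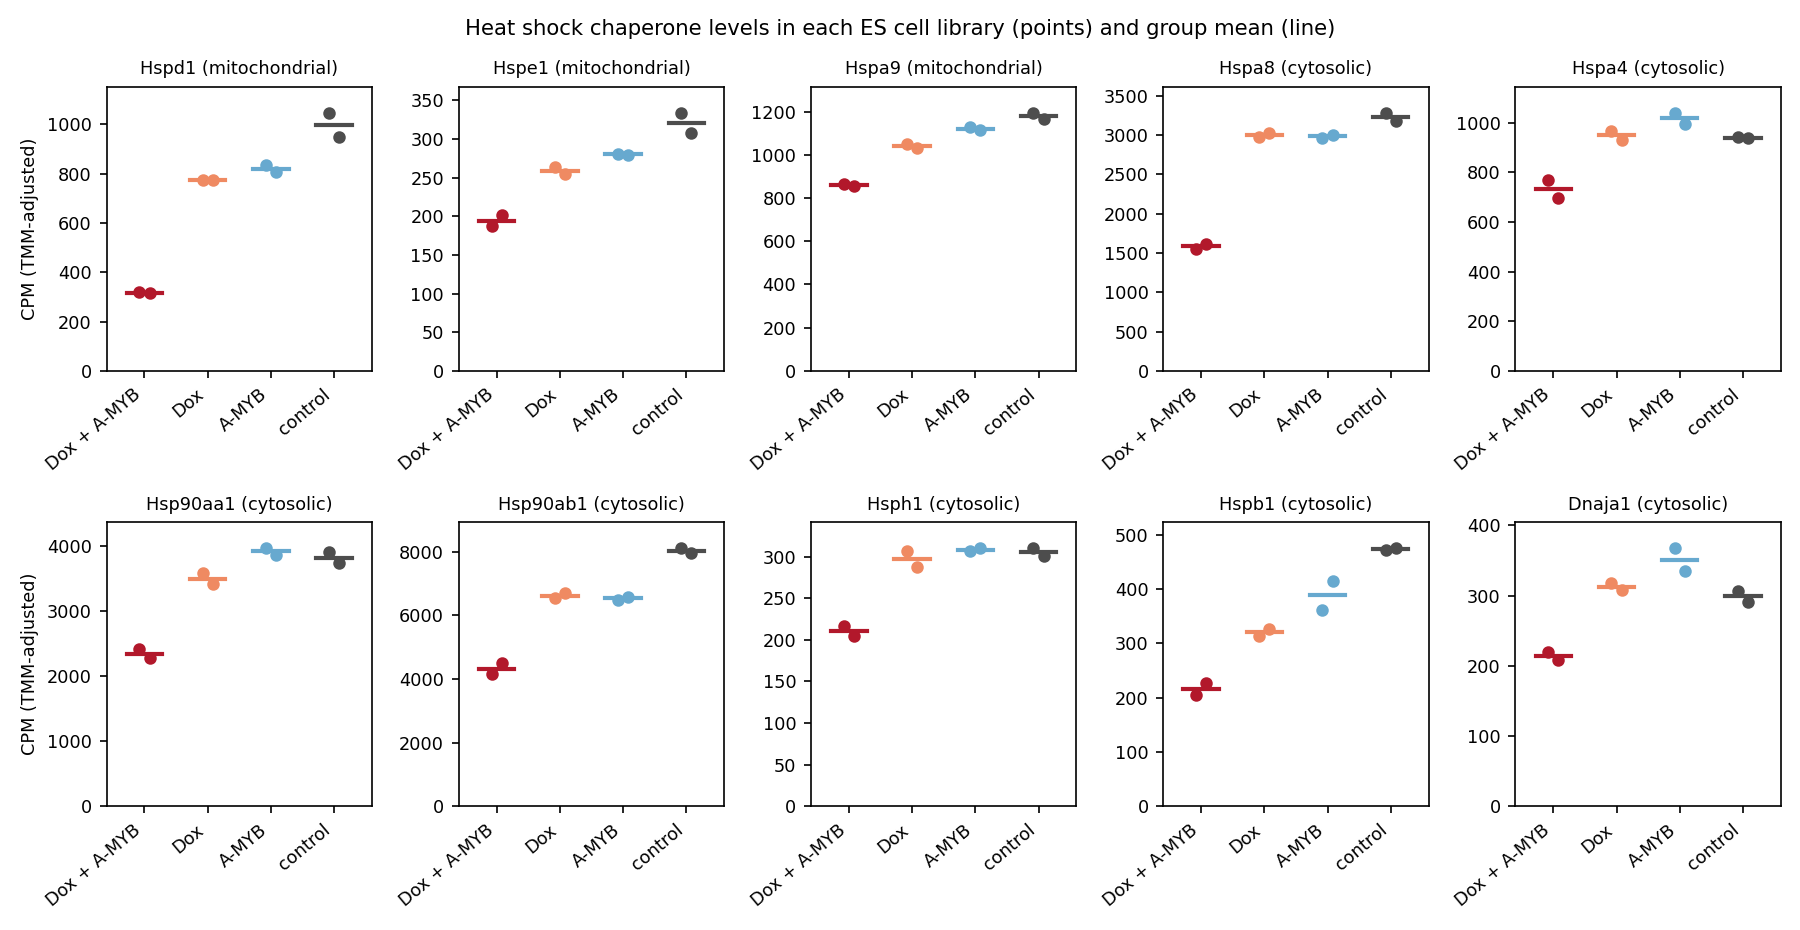
Level of each chaperone gene in CPM (y axes, linear from 0) in Dox + A-MYB, Dox, A-MYB and control ES cells; points are libraries and lines are group means, 2 libraries per group. Both Dox + A-MYB points lie below all 6 others in all 10 panels (27.1% of all genes tested, and 51.1% of the 2933 genes with the highest mean CPM, which include all 10), for Hspd1 at 319.7 and 316 CPM.

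Of the mitochondrial chaperonin, Hspd1 had 319.7 and 316 CPM in Dox + A-MYB cells, 773 and 775 CPM in Dox cells, 836 and 805 CPM in A-MYB cells, and 1048 and 949.6 CPM in control cells. The 4 groups did not overlap, and the Dox + A-MYB cells stood far below the rest. Its lid Hspe1 had 187 and 202 CPM in Dox + A-MYB cells, 264 and 254 CPM in Dox cells, 281 and 279.6 CPM in A-MYB cells, and 334 and 307 CPM in control cells. Again no groups overlapped, and their order was that of Hspd1 with smaller steps. The import motor Hspa9 had 863 and 855 CPM in Dox + A-MYB cells, 1051 and 1034 CPM in Dox cells, 1129 and 1115 CPM in A-MYB cells, and 1196 and 1168 CPM in control cells. All 3 mitochondrial transcripts thus shared 1 order, with Dox + A-MYB lowest, then Dox, then A-MYB, and control highest. Of the cytosolic members, Hspb1 had this order without overlap as well. How many of all genes tested had this order was not counted, so it is not read as a trait of these members. Dox and A-MYB cells were not tested against each other.

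Hspd1 (chromosome 1, 55077833 to 55088243, GRCm38.p6) and Hspe1 (chromosome 1, 55088148 to 55091317) lie head to head on opposite strands, and their annotated spans share 96 bases. The sources used here do not say whether the counting used the strand, so reads in the shared bases may have been split or left out. The stretch between the Hspe1 start and the inner of the 2 annotated Hspd1 starts is shown because it lies upstream of both of these starts and holds the longest array of heat shock units found in the members' windows. It is given with the 250 bases upstream of the start of the other members in which a match was found there, so that the matches can be compared. Sequences are RefSeq promoter windows of GRCm38.p6, 5′ to 3′ on the strand of the named gene, with matches to the heat shock element in capitals.
Hspe1, shared with Hspd1, chr1:55087933-55088147, plus strand: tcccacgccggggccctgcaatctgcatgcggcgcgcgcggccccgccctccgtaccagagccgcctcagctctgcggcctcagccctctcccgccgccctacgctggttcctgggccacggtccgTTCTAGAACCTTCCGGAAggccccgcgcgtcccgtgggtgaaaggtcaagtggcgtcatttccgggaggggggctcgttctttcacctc
Hsph1, chr5:149636337-149636586, minus strand: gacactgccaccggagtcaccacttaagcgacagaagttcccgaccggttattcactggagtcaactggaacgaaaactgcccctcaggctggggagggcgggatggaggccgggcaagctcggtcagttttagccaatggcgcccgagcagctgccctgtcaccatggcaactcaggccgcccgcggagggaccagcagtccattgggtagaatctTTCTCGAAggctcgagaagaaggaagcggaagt
Hspb1, chr5:135887669-135887918, plus strand: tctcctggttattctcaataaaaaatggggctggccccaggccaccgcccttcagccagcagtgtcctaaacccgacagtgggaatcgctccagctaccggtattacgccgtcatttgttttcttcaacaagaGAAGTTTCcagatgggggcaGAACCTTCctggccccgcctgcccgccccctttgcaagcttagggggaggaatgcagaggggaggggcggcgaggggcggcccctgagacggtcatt
Dnaja1, chr4:40722218-40722467, plus strand: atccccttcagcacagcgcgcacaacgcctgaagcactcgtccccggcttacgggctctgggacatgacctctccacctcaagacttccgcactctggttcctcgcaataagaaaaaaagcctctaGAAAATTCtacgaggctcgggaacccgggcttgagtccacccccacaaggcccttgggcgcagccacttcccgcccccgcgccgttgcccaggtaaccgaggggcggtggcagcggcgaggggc

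The heat shock element was searched on both strands as GAANNTTC or TTCNNGAA, in windows from 250 bases before to 50 after each start. Windows were at hand for 6 members (Hspd1, Hspe1, Hspa4, Hsph1, Hspb1 and Dnaja1). Of these, 5 held a match, against 15.1% of the 32851 RefSeq windows of all genes and 17.0% of the 27025 gene symbols. The longer form, in which one more unit of alternating orientation follows after a further 2 bases, overlaps the short one and was found for Hspd1, Hspe1 and Hsph1, against 0.603% of windows and 0.662% of symbols. For Hspd1 and Hspe1 it is the same run, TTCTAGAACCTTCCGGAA on the Hspe1 strand, at positions -89 to -72 from the Hspe1 start and -144 to -127 from the inner Hspd1 start, with the start counted as 0. In Hsph1 the run TTCTGGAAAGTTC lay at positions 36 to 48 after the start, beyond the bases shown. The CCAAT box (CCAAT or ATTGG) was in windows of 3 of the 6 members, Hspd1, Hsph1 and Dnaja1, against 37.4% of windows and 41.1% of symbols. The Hspa4 window held none of these letters.

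The next values ask how Dox acted in cells that also expressed A-MYB, as Dox + A-MYB against A-MYB cells. All 10 members fell (edgeR adjusted p from 3.98e-16 for Hspd1 to 9.63e-07 for Hspa9), and for all 10 both Dox + A-MYB libraries lay below both A-MYB libraries. Of all genes tested, 30.4% fell and 28.5% rose in this comparison, and 38.7% had both libraries lower. The members are abundant, all 10 among the 2933 genes with the highest mean CPM, and of those abundant genes 58.2% fell. The median log2 fold change was -0.65 over the 10 members, against 0.01 over all genes tested and -0.22 over the abundant genes.

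Among the mitochondrial genes, Hspd1 fell by 1.37 on the log2 scale (SE 0.058), Hspe1 by 0.53 (SE 0.060) and Hspa9 by 0.38 (SE 0.053). The change of Hspd1 was thus far larger than those of the other 2. Among the cytosolic genes, the Hsp70 Hspa8 (chromosome 9, 40801276 to 40805202) fell by 0.91 (SE 0.054, edgeR adjusted p = 3.35e-13). It had 1558 and 1615 CPM in Dox + A-MYB cells, 2971 and 3026 CPM in Dox cells, 2969 and 3004 CPM in A-MYB cells, and 3288 and 3183 CPM in control cells. Both Dox + A-MYB libraries of Hspa8 lay far below the other 6, which were close to each other. The J-domain partner Dnaja1 (chromosome 4, 40722468 to 40734965) fell by 0.71 (SE 0.060). The Hsp110 exchange factors fell less, Hsph1 (chromosome 5, 149616843 to 149636498) by 0.55 (SE 0.057) and Hspa4 (chromosome 11, 53259814 to 53300479) by 0.47 (SE 0.058).

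The stress-inducible Hsp90 gene Hsp90aa1 (chromosome 12, 110691036 to 110696395) fell by 0.74 on the log2 scale (SE 0.056) and the constitutive Hsp90ab1 (chromosome 17, 45567778 to 45573261) by 0.59 (SE 0.056). Hsp90aa1 had 2419 and 2278 CPM in Dox + A-MYB cells, 3583 and 3412 CPM in Dox cells, 3972 and 3871 CPM in A-MYB cells, and 3906 and 3737 CPM in control cells. Hsp90ab1 had 4161 and 4485 CPM in Dox + A-MYB cells, 6531 and 6699 CPM in Dox cells, 6491 and 6568 CPM in A-MYB cells, and 8113 and 7941 CPM in control cells. Hsp90aa1 was thus as high in A-MYB as in control cells, whereas Hsp90ab1 was lower in each treated group than in control cells, with the Dox and A-MYB libraries overlapping. Hspb1 (chromosome 5, 135887919 to 135889563) fell by 0.84 (SE 0.064), with 206 and 227 CPM in Dox + A-MYB cells, 314 and 326 CPM in Dox cells, 362 and 414 CPM in A-MYB cells, and 472 and 475 CPM in control cells. The A-MYB libraries of Hspb1 were the most unlike pair of replicates among the 10 genes.

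Seen the other way, as the effect of A-MYB in Dox cells, Dox + A-MYB cells were again lower than Dox cells in all 10 transcripts, from a log2 fold change of -1.28 for Hspd1 (SE 0.058, edgeR adjusted p = 2.34e-15) to -0.28 for Hspa9 (SE 0.053, adjusted p = 8.41e-05). Of all genes tested 28.4% fell and 26.8% rose, 38.4% had both libraries lower, and 57.9% of the abundant genes fell. Against control cells, the Dox + A-MYB cells were lower in all 10, from -1.65 for Hspd1 (SE 0.059, edgeR adjusted p = 3.81e-18), -1.13 for Hspb1 and -1.03 for Hspa8 to -0.36 for Hspa4 (SE 0.058, adjusted p = 6.80e-06). There 30.4% of all genes fell and 33.5% rose, 37.8% had both libraries lower, and 54.3% of the abundant genes fell. These 3 comparisons share the Dox + A-MYB libraries and are not independent of each other.

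The fall depended in size, and for 2 genes in its call, on how the libraries were scaled. With total counts in place of TMM, the median of all genes moved to 0.22 for Dox with A-MYB, 0.20 for A-MYB with Dox and 0.28 for Dox + A-MYB against control. The members then lay between -1.16 and -0.17 for Dox with A-MYB, where all 10 still fell. Hspa9 no longer passed for A-MYB with Dox (-0.09, edgeR adjusted p = 0.150), nor Hspa4 for Dox + A-MYB against control (-0.12, adjusted p = 0.0625). Reads of the 10 members made up 1.23% of all gene reads in Dox + A-MYB cells, 1.67% in Dox cells, 1.71% in A-MYB cells and 1.86% in control cells (means of 2 libraries).

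Either treatment alone split the members. With Dox alone, 5 of 10 fell against control cells, all 3 mitochondrial genes and the cytosolic Hsp90ab1 and Hspb1, where 14.3% of all genes fell, 17.9% rose, and 23.0% of the abundant genes fell. Hspb1 fell by 0.57 on the log2 scale (SE 0.064, edgeR adjusted p = 3.27e-07), Hspd1 by 0.37 (SE 0.057, adjusted p = 2.21e-05) and Hspe1 by 0.31 (SE 0.059, adjusted p = 0.000296). Hsp90ab1 fell by 0.28 (SE 0.056, edgeR adjusted p = 0.000414) and Hspa9 (chromosome 18, 34937414 to 34954351) by 0.18 (SE 0.053, adjusted p = 0.0105). The chaperonin pair and the small heat shock protein thus changed more than the motor Hspa9, whose call was lost without control replicate 1, Dox replicate 1 or Dox replicate 2 (edgeR adjusted p = 0.0532, 0.0800 and 0.0679).

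The other 5 did not pass with Dox alone. Hsp90aa1 had a log2 fold change of -0.13 (SE 0.056, edgeR adjusted p = 0.0834) and Hspa8 one of -0.11 (SE 0.054, adjusted p = 0.124). With DESeq2 size factors Hsp90aa1 passed (edgeR adjusted p = 0.0348) and Hspa8 did not (adjusted p = 0.0553). Both passed with limma-voom (adjusted p = 0.0298 for Hsp90aa1 and 0.0432 for Hspa8) and with the DESeq2 Wald test (adjusted p = 0.0139 and 0.0213). They also passed with only the libraries of the contrast (edgeR adjusted p = 0.00238 and 0.00843). In edgeR both passed without Dox + A-MYB replicate 1 (adjusted p = 0.00983 and 0.0226) or replicate 2 (adjusted p = 0.00975 and 0.0223), and Hsp90aa1 passed without A-MYB replicate 1 or 2 (adjusted p = 0.0495 and 0.0490). Hspa4, Hsph1 and Dnaja1 had values of 0.02, -0.04 and 0.06 (edgeR adjusted p = 0.869, 0.638 and 0.449). Hspa4 had 769.7 and 696 CPM in Dox + A-MYB cells, 966 and 932 CPM in Dox cells, 1040.1 and 995 CPM in A-MYB cells, and 939.9 and 938 CPM in control cells, so that its Dox and control libraries overlapped. Hsph1 had 216 and 205 CPM in Dox + A-MYB cells, 307 and 288 CPM in Dox cells, 307 and 310.4 CPM in A-MYB cells, and 310.5 and 301 CPM in control cells. Outside the Dox + A-MYB group, the 6 Hsph1 libraries could not be set in an order.

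With A-MYB alone, 4 of 10 members fell and 1 rose, where 15.2% of all genes fell, 19.5% rose, and 26.7% of the abundant genes fell. Hsp90ab1 fell by 0.30 on the log2 scale (SE 0.056, edgeR adjusted p = 0.000181), Hspb1 by 0.29 (SE 0.064, adjusted p = 0.00105), Hspd1 by 0.28 (SE 0.057, adjusted p = 0.000372) and Hspe1 by 0.19 (SE 0.059, adjusted p = 0.0127). The call of Hspe1 was lost without control replicate 1 (edgeR adjusted p = 0.118). Dnaja1 rose by 0.23 (SE 0.059, edgeR adjusted p = 0.00351), but not past the test without control replicate 2 (adjusted p = 0.117) or without A-MYB replicate 1 (adjusted p = 0.194). It had 219.7 and 209 CPM in Dox + A-MYB cells, 317 and 308 CPM in Dox cells, 368 and 334 CPM in A-MYB cells, and 307 and 291 CPM in control cells. Dnaja1 was thus highest in A-MYB cells and lowest in Dox + A-MYB cells.

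The remaining 5 did not pass with A-MYB alone. Hspa8 stood at -0.12 (SE 0.054, edgeR adjusted p = 0.101) and Hspa4 at 0.12 (SE 0.058, adjusted p = 0.124). Hspa9 stood at -0.08 (SE 0.053, edgeR adjusted p = 0.291), Hsp90aa1 at 0.04 (SE 0.056, adjusted p = 0.650) and Hsph1 at 0.01 (SE 0.057, adjusted p = 0.879). The Hspa8 difference passed with limma-voom (adjusted p = 0.0330), and in edgeR without Dox + A-MYB replicate 1 or 2 (adjusted p = 0.0163 and 0.0157). Hspa8 also passed for A-MYB alone with the DESeq2 Wald test (adjusted p = 0.0192). The Dox and A-MYB comparisons share the control libraries, so the genes that fell in both are not independent findings.

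**Figure D2:**
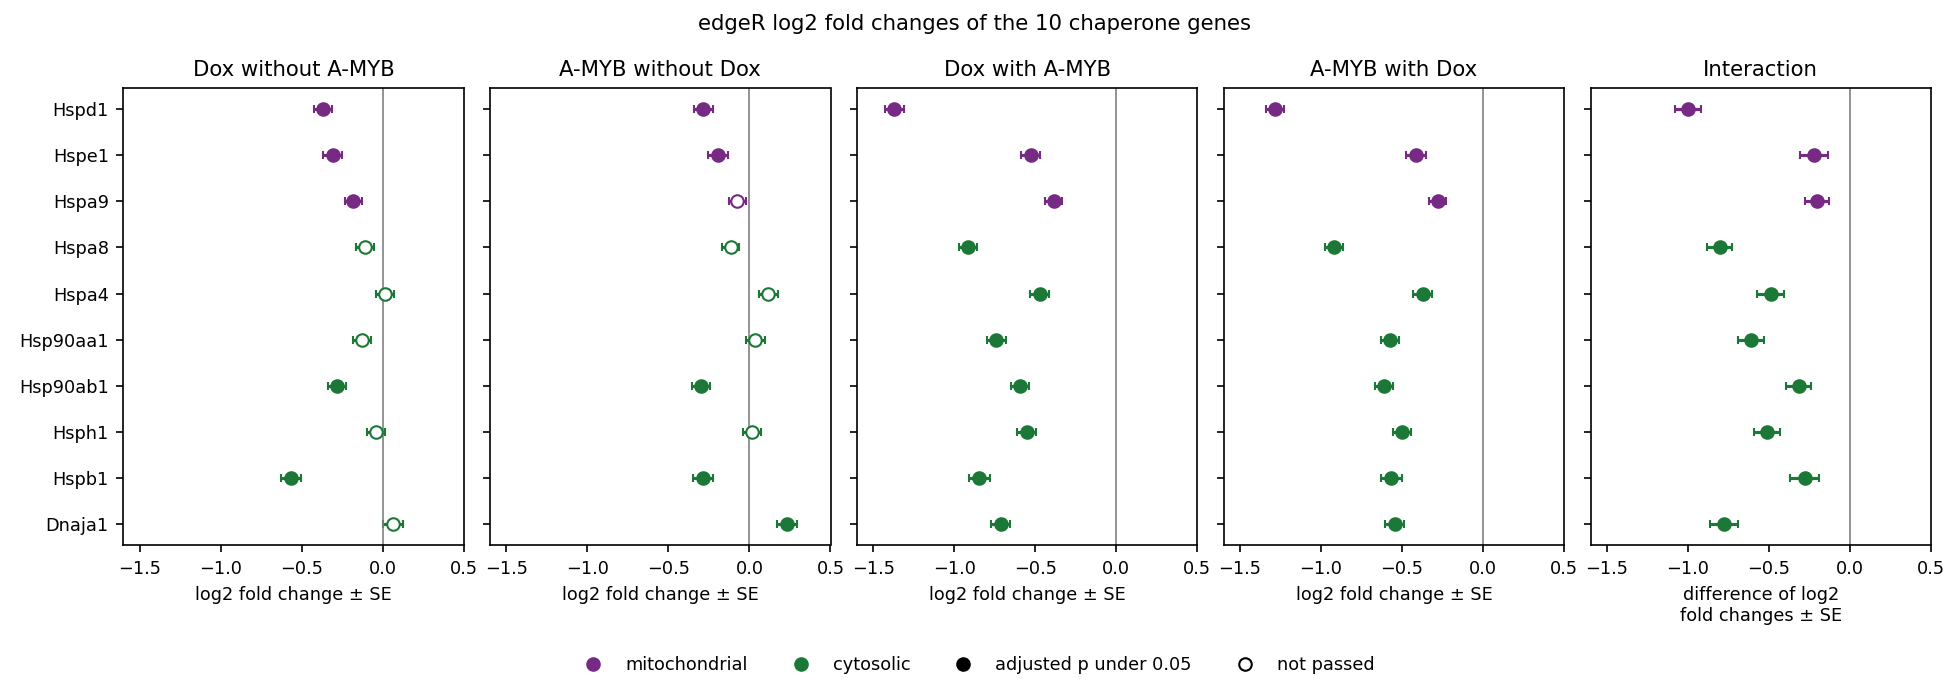
Log2 fold changes of the 10 genes ± SE from edgeR for Dox without A-MYB (Dox over control), A-MYB without Dox (A-MYB over control), Dox with A-MYB (Dox + A-MYB over A-MYB), A-MYB with Dox (Dox + A-MYB over Dox) and the interaction; purple is mitochondrial, green cytosolic, and open points did not pass. Points spread on both sides of 0 for the single treatments and lie below 0 for all 10 genes in the other 3 panels, with Hspd1 farthest left.

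Whether Dox acted otherwise with A-MYB than without it was tested as the interaction, the Dox log2 fold change with A-MYB minus that without. It was below 0 for all 10 members, where 24.5% of all genes and 51.2% of the abundant genes were called lower and 16.4% of all genes higher. It was -1.0 for Hspd1 (SE 0.081, edgeR adjusted p = 1.18e-09), -0.80 for Hspa8 (SE 0.076, adjusted p = 1.69e-08) and -0.78 for Dnaja1 (SE 0.084, adjusted p = 1.14e-07). For Hsp90aa1 it was -0.61, for Hsph1 -0.51 and for Hspa4 -0.49 (edgeR adjusted p from 1.45e-06 to 3.52e-05). These 6 were called under every alternative run. The other 4 were closer to the limit: Hsp90ab1 at -0.32 (edgeR adjusted p = 0.00226), Hspb1 at -0.28 (adjusted p = 0.0160), Hspe1 at -0.22 (adjusted p = 0.0382) and Hspa9 at -0.20 (adjusted p = 0.0318). With total counts none of these 4 passed (edgeR adjusted p from 0.109 to 0.714), and the median over all genes was 0.16. Scaled by DESeq2 size factors, Hspe1 and Hspa9 did not pass either (edgeR adjusted p = 0.0822 and 0.0732). Hspe1 also did not pass with the DESeq2 Wald test (adjusted p = 0.0850). Leaving out any of the 8 libraries left 7 to 9 of the 10 called. Among these fits with 1 library left out, Hspa9 kept its call only without Dox + A-MYB replicate 1 (edgeR adjusted p up to 0.136 otherwise), Hspe1 only without control replicate 1 or Dox + A-MYB replicate 2 (up to 0.257 otherwise), and Hspb1 only without Dox replicate 1, A-MYB replicate 1 or Dox + A-MYB replicate 2 (up to 0.187 otherwise). Of the 6 firmly called genes, 5 are those that did not fall past the test in the main fit with either treatment alone, and the other is Hspd1. The interaction subtracts the Dox change without A-MYB, so this overlap follows in part from how it is computed. It is not a separate result.

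The mitochondrial and cytosolic members were compared as the mean log2 CPM of Hspd1, Hspe1 and Hspa9 minus that of the 7 cytosolic genes in each library, a difference between genes of unlike length that is read only across groups. It was -0.98 and -0.95 in Dox + A-MYB cells, -0.89 and -0.89 in Dox cells, -0.88 and -0.91 in A-MYB cells, and -0.72 and -0.79 in control cells. Dox + A-MYB cells lay lowest and control cells highest, without overlap. The change was -0.21 for Dox + A-MYB against control, with a pooled SD between replicates of 0.037, and -0.14 for each treatment alone (SD 0.031 for Dox and 0.034 for A-MYB). With the other treatment present it was -0.07 for Dox and -0.07 for A-MYB (SD 0.024 and 0.019). The Dox change with A-MYB minus that without was 0.07 (SD 0.028). No p is given, since the members were chosen with earlier results known.

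The mitochondrial side rested on Hspd1. Without it, the same difference was -0.87 and -0.82 in Dox + A-MYB cells, -1.07 and -1.09 in Dox cells, -1.07 and -1.09 in A-MYB cells, and -0.97 and -1.01 in control cells. Dox + A-MYB cells then lay above the other 3 groups, which holds for the mean of Hspe1 and Hspa9 and not for each gene against each cytosolic member. Against control cells, for instance, the log2 fold change was -0.72 for Hspe1 and -0.46 for Hspa9, compared with -0.36 for Hspa4 and -1.13 for Hspb1. The change without Hspd1 was 0.14 for Dox + A-MYB against control, 0.23 for Dox with A-MYB and 0.24 for A-MYB with Dox, all opposite in sign to the values with it. For Dox alone and A-MYB alone it kept its sign, at -0.09 each. By read share, the mitochondrial genes made up 12.5% of the members' reads in Dox + A-MYB cells, 12.2% in Dox cells, 12.5% in A-MYB cells and 12.8% in control cells.

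**Figure D3:**
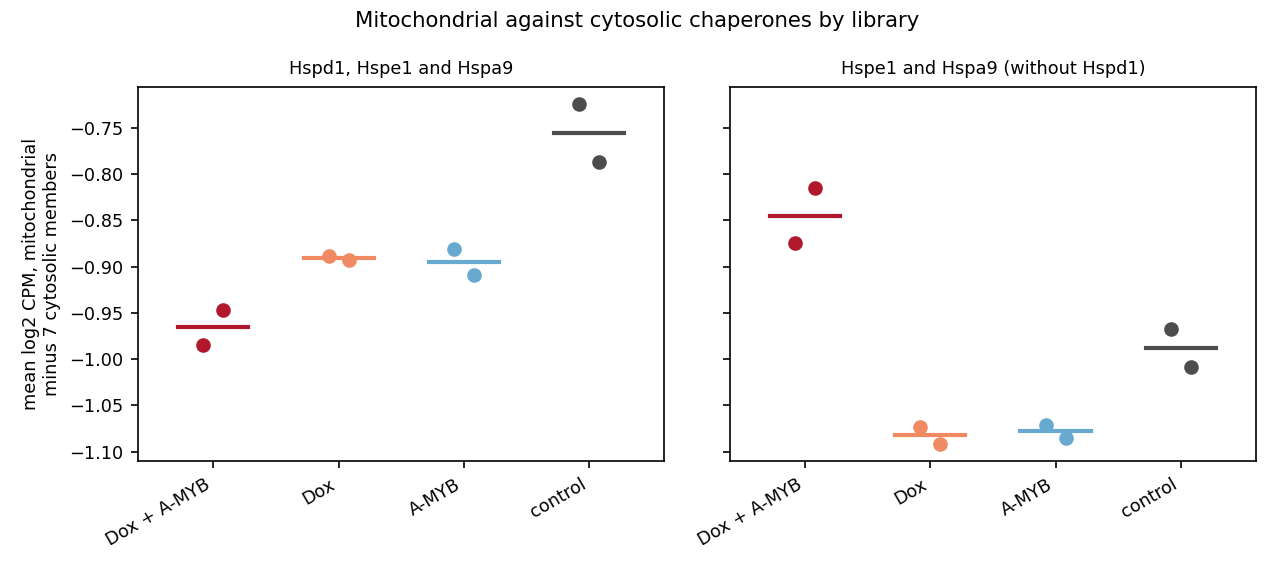
Mean log2 CPM of the mitochondrial minus the 7 cytosolic chaperone genes (y axis, log2) in each library (points) with group means (lines), with all 3 mitochondrial genes at left and without Hspd1 at right. Dox + A-MYB cells are the lowest group at left, at -0.98 and -0.95, and the highest at right, at -0.87 and -0.82.

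Ratios of read counts between partner genes do not depend on library scaling. The ratio of Hspd1 to Hspe1, chamber to lid, was 1.71 and 1.57 in Dox + A-MYB cells, 2.93 and 3.05 in Dox cells, 2.97 and 2.88 in A-MYB cells, and 3.14 and 3.09 in control cells. It was near 3 in the other groups and lower in the Dox + A-MYB cells (1.64 ± 0.101, against 2.99 ± 0.0852, 2.93 ± 0.0660 and 3.11 ± 0.0337, mean ± SD, n = 2 each). The stretch shown above lies upstream of the Hspe1 start and of the inner Hspd1 start. The ratio of the mitochondrial Hsp70 Hspa9 to the cytosolic Hspa8 went the opposite way, at 0.554 and 0.529 in Dox + A-MYB cells, 0.354 and 0.342 in Dox cells, 0.380 and 0.371 in A-MYB cells, and 0.364 and 0.367 in control cells.

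The 2 cytosolic pairs taken set the Dox + A-MYB cells less apart from the other groups. Other cytosolic pairs were not computed, so this is not read as a trait of the cytosolic members. Hspa8 and its exchange factor Hspa4, for instance, fell by unlike amounts for Dox with A-MYB (0.91 and 0.47 on the log2 scale). Hsp90aa1 over Hsp90ab1 was 0.545 ± 0.0519 in Dox + A-MYB cells, 0.529 ± 0.0278 in Dox cells, 0.601 ± 0.0160 in A-MYB cells and 0.476 ± 0.00763 in control cells (mean ± SD, n = 2 each). It was higher in all 6 treated libraries than in both controls, and highest in A-MYB cells. Hsph1 over Hspa4 was 0.287 ± 0.00934 in Dox + A-MYB cells, 0.313 ± 0.00603 in Dox cells, 0.304 ± 0.0121 in A-MYB cells and 0.326 ± 0.00679 in control cells, and was lower in the treated libraries than in both controls. These ratios are descriptions and were not tested.

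**Figure D4:**
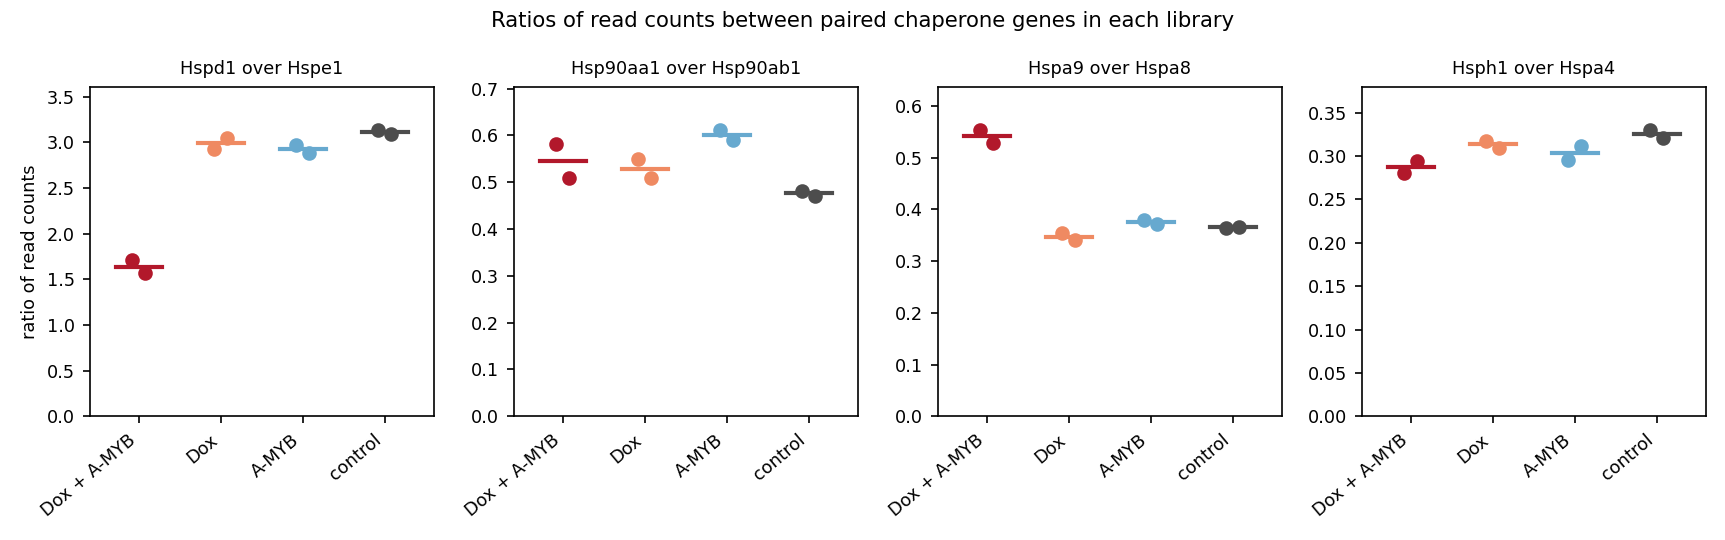
Ratio of read counts (y axes, linear from 0) of 4 pairs of chaperone genes in each library, with group means as lines. The Dox + A-MYB cells stand far from the other groups for Hspd1 over Hspe1, at 1.71 and 1.57, and for Hspa9 over Hspa8, at 0.554 and 0.529. For the 2 cytosolic pairs they lie nearer to the other groups, and Hsp90aa1 over Hsp90ab1 is highest in A-MYB cells.

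Partner genes of the same pathways were followed in 4 lists of 63 genes. Of 36 cytosolic co-chaperones, 19 fell and 9 rose for Dox with A-MYB, where 30.4% of all genes fell and 28.5% rose, and their median log2 fold change was -0.21 against 0.01 over all genes. The share that rose was near that of all genes. Of the abundant genes 58.2% fell, with a median of -0.22, and how many of the 36 are abundant was not counted. With Dox alone 10 of the 36 fell and 5 rose (median -0.02), where 14.3% of all genes fell, 17.9% rose, and 23.0% of the abundant genes fell. With A-MYB alone 11 fell and 6 rose (median -0.09), where 15.2% of all genes fell, 19.5% rose, and 26.7% of the abundant genes fell. The Hsp90 co-chaperone Ptges3 (p23) had the smallest p for Dox with A-MYB, for which it fell by 1.16 on the log2 scale (SE 0.070, edgeR adjusted p = 4.78e-12), though it rose by 0.73 with A-MYB alone (SE 0.069, adjusted p = 1.10e-07). Its levels were 213 and 178 CPM in Dox + A-MYB cells, 339 and 320 CPM in Dox cells, 455 and 419 CPM in A-MYB cells, and 263 and 262 CPM in control cells, so that it was highest with A-MYB alone, as was Dnaja1. The J-domain proteins Dnajb6 and Dnaja2 fell by 0.76 and 0.71 for Dox with A-MYB (edgeR adjusted p = 1.99e-10 and 2.03e-10). Among the 9 that rose were the J-domain genes Dnaja4 (by 1.44, edgeR adjusted p = 1.29e-07), Dnajb2 (by 0.56) and Dnajb4 (by 0.53). Cryab rose too, by 1.39 (edgeR adjusted p = 9.00e-06), so co-chaperones went both ways. Fkbp4, an immunophilin that docks to Hsp90, fell by 0.38 with Dox alone and by 0.40 with A-MYB alone (SE 0.059 each, edgeR adjusted p = 1.92e-05 and 1.02e-05).

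Of 11 mitochondrial chaperones and partners, 4 rose for Dox with A-MYB and the other 7 did not pass, with a median log2 fold change of 0.13. The number that rose was near the 28.5% of all genes that rose, and 0 fell where 30.4% of all genes did. With Dox alone 1 rose and 1 fell, where 17.9% of all genes rose and 14.3% fell. With A-MYB alone 1 rose and 2 fell, where 19.5% of all genes rose and 15.2% fell. These small counts are not read as a result about the list. Hscb, a J-domain protein of iron-sulfur cluster assembly, rose by 0.80 (edgeR adjusted p = 1.19e-06), Dnlz, which keeps Hspa9 soluble, by 0.53 (adjusted p = 0.000279), and Timm44, which anchors Hspa9 at the import channel, by 0.31 (adjusted p = 0.000186). The mitochondrial Hsp90 gene Trap1 had a log2 fold change of -0.0024 there (edgeR adjusted p = 0.975), but like Hspd1 it fell with Dox alone (by 0.17, adjusted p = 0.0315), with A-MYB alone (by 0.16, adjusted p = 0.0443) and in Dox + A-MYB against control cells (by 0.16, adjusted p = 0.0228). Of 10 mitochondrial proteases, 3 fell and 3 rose for Dox with A-MYB, near the shares of all genes (30.4% and 28.5%). Yme1l1 and Afg3l2, proteases of the inner membrane, fell by 0.49 and 0.47 (edgeR adjusted p = 3.06e-07 and 1.54e-06), and Htra2, a protease between the membranes, rose by 0.56 (adjusted p = 3.03e-06). Yme1l1 had risen by 0.54 with A-MYB alone (edgeR adjusted p = 6.11e-07). In Dox + A-MYB against control cells it stood at 0.05 (edgeR adjusted p = 0.479), whereas Afg3l2 was lower by 0.66 (adjusted p = 3.00e-09).

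Of 6 heat shock factors and regulators, 2 rose and 1 fell for Dox with A-MYB, a count near the 28.5% and 30.4% of all genes. Hsf1, the main activator of heat shock genes, rose by 0.32 (SE 0.079, edgeR adjusted p = 0.00108). It had 63.6 and 66.7 CPM in Dox + A-MYB cells, 54.3 and 59.8 CPM in Dox cells, 53.3 and 50.8 CPM in A-MYB cells, and 46.4 and 50.8 CPM in control cells, and was thus highest where the 10 chaperones were lowest. Its inhibitor Hsbp1 rose by 0.28 (edgeR adjusted p = 0.000948) and Hsf2 fell by 0.40 (adjusted p = 0.000233). With A-MYB alone these 2 had moved the opposite way, Hsbp1 by -0.20 and Hsf2 by 0.39 (edgeR adjusted p = 0.0240 and 0.000889). In Dox + A-MYB against control cells neither passed, at 0.08 for Hsbp1 and -0.013 for Hsf2 (edgeR adjusted p = 0.304 and 0.904), whereas Hsf1 rose by 0.42 (adjusted p = 5.05e-05).

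Genes outside the family whose levels over the 8 libraries lay nearest to the mean profile of the members were taken by the root mean square distance of log2 CPM, each centred on its own mean. Nearest to the mitochondrial profile were Myl12b (0.033), Slc7a1 (0.045), Actb (0.046), St5 (0.048) and Ogfod3 (0.049). Nearest to the cytosolic profile were Dazap2 (0.029), l7Rn6 and Tpm4 (0.033 each), Rrm2 (0.034) and G3bp1 (0.037). Of the members, Hspd1 lay at 0.28, Hspa9 at 0.19 and Hspe1 at 0.10 from the mitochondrial mean. The cytosolic members lay from 0.039 for Hsp90aa1 to 0.18 for Hspb1 from the cytosolic mean. Hsp90ab1 (0.069), Hspa8 (0.098) and Hsp90aa1 (0.0999) lay nearer to the mitochondrial mean than Hspe1 (0.104), and the other cytosolic members at 0.13 to 0.21. Hspe1 (0.088) and Hspa9 (0.13) lay nearer to the cytosolic mean than to their own, and Hspd1 (0.35) did not. These distances thus did not sort the members by compartment. The named genes were picked as the nearest of all tested genes outside the members, so they set no scale for these distances. How many genes lay nearer than each member was not counted. Of its 3 genes, Hspd1 lay farthest from the mitochondrial mean.

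Over the whole series, gene reads per library numbered 26995317 to 33771487. The Dox + A-MYB libraries stood apart on the first principal component (80.7 and 80.9, against -48.4 to -9.73 for the other 6; 64.1% of variance) and had more genes with a read (17602 and 17554, against 16027 to 16512) and TMM factors of 1.12 and 1.11, against 0.944 to 0.979. Mybl1, which encodes A-MYB, had 19.9 and 16.6 CPM in Dox + A-MYB cells, 11.0 and 10.2 CPM in Dox cells, 22.0 and 17.8 CPM in A-MYB cells, and 8.38 and 6.92 CPM in control cells. All 12 naive ES cell markers reached 1 CPM in every group, but their sum was 4815 to 5097 CPM in Dox + A-MYB cells, 8056 to 8085 CPM in Dox cells, 7398 to 7575 CPM in A-MYB cells, and 7777 to 7900.1 CPM in control cells. Summed markers in Dox + A-MYB libraries, against the range of the other 6, were 202 to 209 against 224 to 258 CPM for primed epiblast, 9.70 to 10.5 against 5.85 to 7.28 CPM for endoderm, 13.8 to 14.8 against 25.2 to 32.9 CPM for mesoderm, and 184 to 187 against 252 to 361 CPM for neuroectoderm. They were 80.8 to 90.4 against 92.7 to 112 CPM for trophoblast, 9.0 to 9.02 against 12.1 to 22.6 CPM for fibroblasts, 52.0 to 53.0 against 29.6 to 55.4 CPM for 2-cell-like cells, and 181 to 194 against 103 to 159.6 CPM for male germ cells. Fgf5 (primed) and the spermatid genes Acrv1, Prm1, Prm2 and Tnp1 had no read in any group. The part of these shifts in the chaperone results was not tested.

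The series also holds H3K27ac peak lists, a mark of active promoters and enhancers, from pachytene spermatocytes of 2 A-myb mutant and 2 wild-type preparations. None of the 6 members with a start site at hand had a peak within 1000 bases of it in any of the 4 lists. Such a peak was found for 0.973% and 0.962% of 27025 gene symbols in the mutant lists and for 2.72% and 1.49% in the wild-type lists. The lists hold 21269 to 29042 peaks each, and why so few start sites of any gene had one was not tested. The lack of a peak at the members is therefore not read as a result about them.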

How the data were processed

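Unnormalized counts of reads per gene were deposited for the 8 ES cell libraries; per the submitters' processing notes the tools named are bcl2fastq 2.20.0, HISAT2 2.1.0, Bowtie2 2.3.3.1, HTSeq and MACS 1.4.2, with build mm10. RNA came from wells of a plate, per the labels' protocols, with a stranded mRNA kit; the sources used here do not say whether wells were separate cultures, so p-values measure the spread between libraries. The special lines for reads given to no gene (17.2 to 19.5% of all) were left out.

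The 14664 genes that passed filterByExpr were fitted with edgeR 4.0.16 (R 4.3.3, limma 3.58.1; TMM, glmQLFit robust, all 8 libraries, 4 residual degrees of freedom), tested two-sided with glmQLFTest and adjusted by Benjamini-Hochberg over all 14664. An adjusted p under 0.05 passed. SE is the absolute log2 fold change over the square root of F. The procedure was tested on simulated data. Gene reads per library were 26995317 to 33771487, with a biological coefficient of variation of 0.0631, and replicates differed by more than sampling noise (chi-square per degree of freedom 5.41 to 13.7). Alternatives were other scalings (DESeq2 size factors, total counts), no filter, DESeq2 1.42.0, limma-voom, no robust fit, only the libraries compared, the replicate block and leaving out libraries.

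In the authors' deposited peak lists, the enrichment is a ratio (fold over background), the score comes from the peak caller and tags are counts; only positions and the fold were used, and the sources used here do not say which library was the control. Start sites and sequences are from RefSeq (GRCm38.p6). Named genes are all 10 members, up to 3 genes per list and comparison with the smallest p among those that passed, and the 5 genes nearest to each profile. Some co-chaperones that rose for Dox with A-MYB were named in addition. The members and lists were chosen with earlier results of these data known.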

Additional observations from a re-analysis of the deposited data

Results flagged for a closer look

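For all 10 genes, the Dox effect in cells with A-MYB differed from that in cells without it, by the interaction term in edgeR, where 24.5% of all genes and 51.2% of the abundant genes were called lower. The difference on the log2 scale (Dox effect with A-MYB minus without) was -1.0 for Hspd1, -0.80 for Hspa8, -0.78 for Dnaja1, -0.61 for Hsp90aa1, -0.51 for Hsph1 and -0.49 for Hspa4. It was -0.32 for Hsp90ab1, -0.28 for Hspb1, -0.22 for Hspe1 and -0.20 for Hspa9. In the last 4 genes the call was lost with total counts, and for Hspb1, Hspe1 and Hspa9 also without single libraries. The call was lost for Hspe1 and Hspa9 with DESeq2 size factors too, and for Hspe1 with the DESeq2 Wald test.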

How the results depend on the processing

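Of 60 member results (10 genes in 6 comparisons), 44 kept direction and call in every alternative run, among them all 10 for Dox with A-MYB. With total counts, 6 of 10 members passed for the interaction, where 3746 genes were called higher and 2291 lower; genes called lower numbered 2606 for Dox with A-MYB, 2367 for A-MYB with Dox and 2796 for Dox + A-MYB against control. The medians of all genes moved there because the scaling factors were set to 1. Changes of sign were all in values near 0: Hspa4 for Dox alone stood at -0.014 with DESeq2 size factors, -0.012 with the DESeq2 Wald test, -0.010 with the libraries of the contrast only, and -0.011 to 0.016 without single libraries. Hsph1 for A-MYB alone stood at -0.0089 with DESeq2 size factors, -0.0068 with the DESeq2 Wald test and -0.036 to 0.016 without single libraries, and for Dox alone at 0.0045 with total counts. Hsp90aa1 for A-MYB alone ran from -0.021 to 0.041 without single libraries.

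The mitochondrial minus cytosolic change moved with the summary. From sums of CPM it was -0.079 for Dox alone, -0.0099 for Dox with A-MYB, -0.029 for A-MYB alone, 0.040 for A-MYB with Dox and -0.038 for Dox + A-MYB against control. From medians it was -0.38, -0.89, -0.40, -0.91 and -1.29 in that order and -0.51 for the interaction; the mitochondrial median is Hspd1 in every library. Without Hspd1 it was -0.095, 0.23, -0.090, 0.24 and 0.14, and 0.33 for the interaction. Without Hspb1 it was -0.20 for Dox alone, -0.096 for Dox with A-MYB, -0.18 for A-MYB alone, -0.28 for Dox + A-MYB against control and 0.11 for the interaction. Without Hsp90ab1, an alternative chosen after seeing the data, it was -0.18 for A-MYB alone and 0.10 for the interaction. For the interaction it was 0.034 to 0.097 without single libraries.

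Without single libraries, 4 to 7 members fell with Dox alone, 3 to 5 fell and 0 to 1 rose with A-MYB alone, and 7 to 9 were lower in the interaction; all genes called numbered 1253 to 2623 higher and 1221 to 2598 lower for Dox alone, and 1718 to 2834 higher and 1482 to 2842 lower for A-MYB alone. A group left with 1 library was assumed to vary like the others. Without both Dox + A-MYB libraries, also chosen after seeing the data, Hsp90aa1 also fell with Dox alone (edgeR adjusted p = 0.0336). Hspa8 then also fell with A-MYB alone (edgeR adjusted p = 0.0426), and no other member call changed. Same-numbered libraries showed little shared deviation (correlations from -0.027 to 0.084), and the main fit did not pair them. Whether they were handled together is not given in the sources used, and these correlations cannot decide it. With the replicate block, 5 members were called lower for Dox alone, where 2176 of the 14664 genes tested were. For Dox with A-MYB 10 were lower (4567 of all genes), and for the interaction 10 (3705 of all genes). For A-MYB alone 4 were lower and 1 higher (2332 and 2943 of all genes). With 2 libraries a group, small differences such as that of Hspa8 with one treatment were near the limit of the test.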
